A study of Oryctolagus cuniculus with 10 samples.

Results

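The 6 genes described here are SREBF2, SCAP, INSIG1, INSIG2, STARD4 and NPC1L1. They were chosen by symbol, as genes that sense cell sterol and carry out the response of the transcription factor SREBP2, and each has 1 row in the deposited comparison table of 19123 genes. The 4 processing factors are SREBF2, SCAP, INSIG1 and INSIG2, and the 2 sterol transport targets are STARD4 and NPC1L1. None of the 6 encodes a receptor for LDL itself. Livers were taken from 5 rabbits on the squalene diet and 5 on the control diet, all wild-type males of the New Zealand white breed. The squalene diet held 1% sunflower oil and 0.5% squalene for 4 weeks, and the control diet held 1% sunflower oil alone for the same time. All rabbits were starved before the livers were taken, so every level is that of a fasted liver. Age is not given in the sources used here.

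Squalene is the hydrocarbon from which cells make all their sterols. SREBP2, the product of SREBF2, is a transcription factor held in the membrane of the endoplasmic reticulum by SCAP, its sterol-sensing escort. When sterol is low, SCAP carries SREBP2 in vesicles with a COPII coat to the Golgi, where proteases release the active part, which switches on genes for making and taking in cholesterol. When sterol is high, SCAP binds INSIG1 or INSIG2, and the complex stays in the endoplasmic reticulum. INSIG1 and SREBF2 are themselves targets of SREBP2, whereas INSIG2 is known in mouse liver for a transcript that insulin lowers and fasting raises.

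The 10 libraries held 45260000 to 46120000 clean reads each, with a median of 45850000, as rounded in the deposited totals. The table gives 1 level per diet and gene, without a value per rabbit, so no spread between rabbits, standard error or test could be computed for any ratio below. A legend of the study calls the sequenced samples partially pooled. Every level of 1 or more has lost its decimal mark, and only the 3050 levels under 1 on the squalene diet and the 3098 on the control diet keep theirs. A level is therefore known only up to a power of 10, and no level is printed. The ratio of the squalene level to the control level was taken at the power of 10 nearest to no difference. A gene with a very large difference can thereby be set at a smaller ratio on the other side. The ranks and shares over all genes given below can therefore include some such genes on the wrong side. For the 6 genes, whose levels are all 1 or more, the next possible ratio would be a difference of at least 4.88-fold. In liver tissue, fewer cells of a type and less RNA per cell cannot be told apart.

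Of the 6 genes, 5 had a lower level on the squalene diet and INSIG2 a higher one. Of all 19123 genes, 9038 were lower and 10085 higher. The median log2 ratio of the 6 genes was -0.62, against 0.02 over all genes, with quartiles at -0.18 and 0.22. A 1.5-fold difference was used as a fixed size in place of a test. By that size 3 of the 6 genes were lower, NPC1L1, STARD4 and SREBF2, against 2.99% of all genes, and 1 was higher, INSIG2, against 4.7% of all genes. In either direction 7.69% of all genes lay past this size. SCAP and INSIG1 lay inside it. With a fold of 5/4 as the size, 5 of the 6 genes were lower, against 12.8% of all genes. With a fold of 2, STARD4 and NPC1L1 were lower, against 0.361% of all genes, and none of the 6 was higher, against 0.638%.

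**Figure D1:**
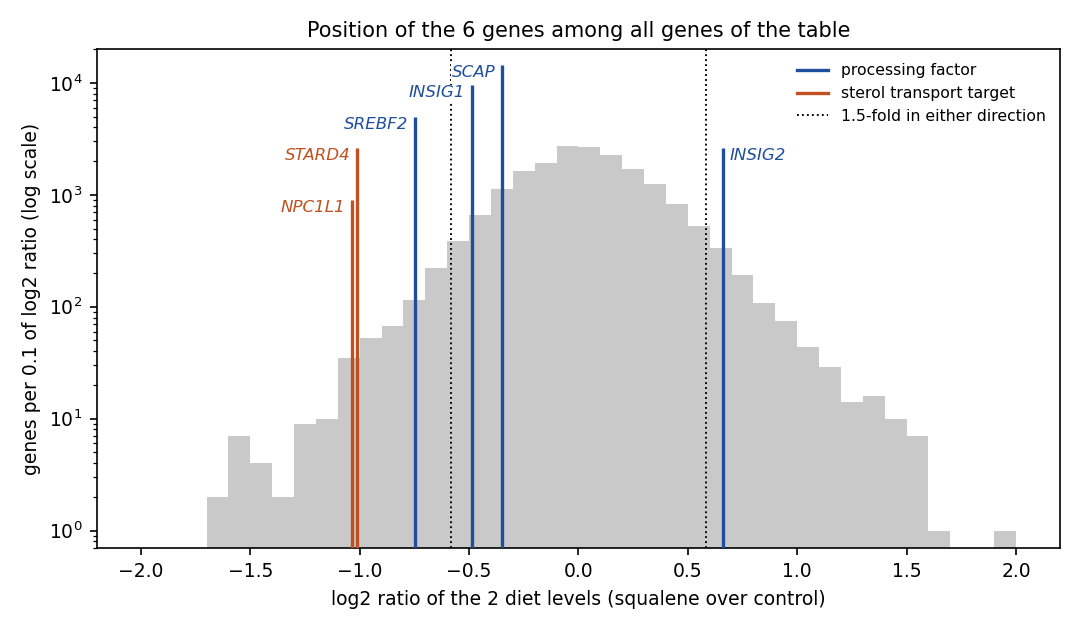
Grey bars count the genes of the table in steps of 0.1 of the log2 ratio of the squalene level to the control level, on a log scale, and coloured lines mark the 6 genes, whose line heights only separate the names. NPC1L1 and STARD4 lie side by side near -1, SREBF2 at -0.75 is past the dotted line of a 1.5-fold lower level, INSIG1 and SCAP are inside it, and INSIG2 at 0.66 is past the line on the higher side.

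SREBF2 itself had a log2 ratio of -0.75, which is 0.595 times the control level (gene ID 100008783, listed length 4673 bases). Only 1.26% of all genes had a ratio as low or lower. The related factor SREBF1, whose products mainly serve fatty acid synthesis, had a log2 ratio of -0.33. The escort SCAP had -0.35, or 0.784 times the control level, and 2103 of the 19123 genes were as low or lower (gene ID 100356043, 4190 bases). The ratio of SCAP was thus nearer to that of most genes than the ratio of SREBF2, with a difference of 0.40 between these log2 ratios.

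The 2 INSIG genes lay on opposite sides. INSIG1 had a log2 ratio of -0.49, or 0.713 times the control level, with 5.11% of all genes as low or lower (gene ID 100353280, 2938 bases). INSIG2 had a log2 ratio of 0.66, or 1.58 times the control level, with 3.14% of all genes as high or higher (gene ID 100355934, 2672 bases). Between them the log2 ratios differed by 1.15, so the level of INSIG2 relative to INSIG1 was 2.22 times as high on the squalene diet as on the control diet. Whether this difference exceeds the spread between rabbits cannot be said from 1 level per diet. In the functional terms of the table, INSIG1 and INSIG2 are the only genes with the term for the SREBP-SCAP-Insig complex. Only INSIG2 carries the term for the response to sterol depletion, and only INSIG1 the term for holding back cargo from COPII vesicles.

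The term for SREBP signaling is given to 5 genes, namely SCAP, INSIG1, INSIG2, ERLIN1 and ERLIN2. The erlins, scaffold proteins of the endoplasmic reticulum that help INSIG and SCAP retain SREBP, had log2 ratios of -0.26 for ERLIN1 and -0.14 for ERLIN2. INSIG2 was the only gene of these 5 with a ratio above 1.

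The sterol transport targets had the lowest ratios of the 6 genes. STARD4, a soluble protein that moves cholesterol between membranes, had a log2 ratio of -1.01, or 0.496 times the control level (gene ID 100355240, 3997 bases). Over all genes, 61 were as low or lower, which is 0.319%. NPC1L1 is the cholesterol importer of the intestinal brush border, and in humans it also lies on the bile side of hepatocytes. It had a log2 ratio of -1.03, or 0.488 times the control level, and 50 genes, 0.261% of all, were as low or lower (gene ID 100009042, 3978 bases). These 2 log2 ratios differed by only 0.02. Markers of the small intestine were looked up beside NPC1L1. Of 5 listed, 2 are in the table, namely VIL1 at a log2 ratio of 0.38 and FABP2 at -0.07, and FABP2 had a level under 1 on both diets.

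Both transport genes stood below their relatives. Of 8 other genes named STARD in the table, 3 lay above and 5 below a ratio of 1, and their median log2 ratio was -0.11. The lowest was STARD9 at -0.66, followed by STARD5, another cytosolic sterol carrier, at -0.61. STARD3, which tethers late endosomes to the endoplasmic reticulum, was the highest at 0.36. NPC1, the lysosomal relative of NPC1L1, had a log2 ratio of -0.22. These relatives were picked by name after the ratios had been seen.

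The list of SREBF1 and the other genes that act on SREBP or on its partners holds 11 genes, all in the table, of which 4 lay above and 7 below a ratio of 1. None was past 1.5-fold, against 7.69% of all genes in either direction, and the median log2 ratio was -0.14. The lowest were SREBF1, given above, and MBTPS1, the first protease that cuts SREBP in the Golgi, at -0.32. The highest were PGRMC1, a membrane protein reported to bind INSIG1, at 0.28, and MBTPS2, the second protease, at 0.12. Of 11 genes of the COPII coat and its assembly, 10 are in the table under that symbol. None was past 1.5-fold, against the same 7.69%. Their median was -0.03. The lowest were SEC24C, a coat subunit that selects cargo, at -0.42 and the coat subunit SEC23B at -0.18, and the highest were SEC23A, also a coat subunit, at 0.26 and the GTPase gene SAR1B at 0.21.

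Genes of sterol synthesis, the best known targets of SREBP2, lay on the same side as STARD4 and NPC1L1. Of 21 listed, 17 are in the table under that symbol. Of these 17 genes, 16 had a lower level on the squalene diet, against 9038 of all 19123 genes. Past 1.5-fold lower were 10 of the 17, against 2.99% of all genes, and none was higher by that size. Their median log2 ratio was -0.65. Among those far below was SQLE, which oxidises squalene, at a log2 ratio of -1.26. The highest were GGPS1, which makes geranylgeranyl diphosphate rather than a sterol, at 0.06 and ACAT2, which makes acetoacetyl-CoA, at -0.12. Set among these 17 genes, NPC1L1 had 3 below it and STARD4 had 4. SREBF2 had 7 below it, INSIG1 11 and SCAP 12, and INSIG2 was above all 17.

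Other genes of sterol uptake and transport did not share the low ratios of STARD4 and NPC1L1. All 25 listed are in the table, and 15 lay above and 10 below a ratio of 1, with a median log2 ratio of 0.03. Of all 19123 genes, 10085 lay above and 9038 below a ratio of 1. By the 1.5-fold size 1 of the 25 was lower, STARD5, given above, against 2.99% of all genes. None was higher, against 4.7% of all genes. The next lowest was LRP1, a receptor for remnant particles, at -0.54. The highest were GRAMD1C, a sterol carrier at membrane contacts, at 0.41 and STARD3. Of 7 genes of the oxysterol receptor LXR and of sterol export, 6 were higher on the squalene diet. Their median of 0.19 lay below the upper quartile of all genes, 0.22. Past 1.5-fold higher were 2 of the 7, against 4.7% of all genes, and past 2-fold none, against 0.638%. The 2 were the export pump gene ABCG1 at 0.69 and ABCG5, a subunit of the pump that moves sterol into bile, at 0.62. The lowest were LPCAT3, a phospholipid remodelling enzyme, at -0.11 and ABCA1, which loads cholesterol onto HDL, at 0.15.

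**Figure D2:**
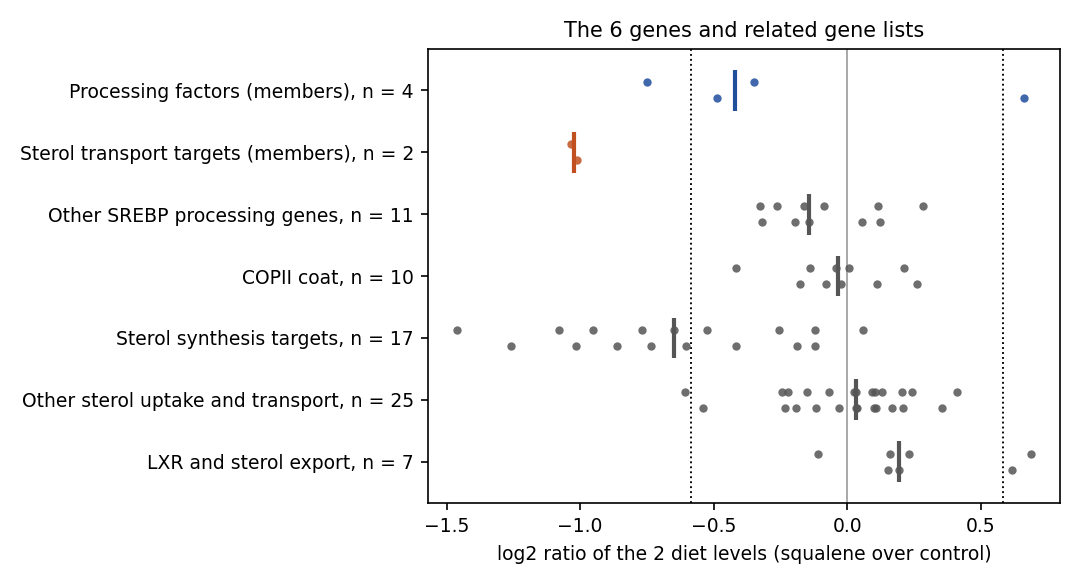
Each point is 1 gene, placed by its log2 ratio of the squalene level to the control level, and each short vertical bar is the median of its row; dotted lines mark 1.5-fold in either direction. STARD4 and NPC1L1 overlap with the lower part of the sterol synthesis targets, at a median of -0.65, while the other lists have medians between -0.14 and 0.19.

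The genes next to each of the 6 on the chromosome were also looked up, taking only their order from the RefSeq annotation of assembly mOryCun1.1, which is not the build of the study. Over the 36 neighbours, 3 on each side, the median log2 ratio was -0.01, with 1 gene past 1.5-fold higher and 1 lower. Over all genes, 4.7% were higher and 2.99% lower by that size. STARD4 and NPC1L1 were each lower than all 6 of their neighbours, and so was SREBF2. INSIG2 differed in this, since the genes on both sides of it also had higher levels, LOC103348741 at a log2 ratio of 0.71 and LOC108176830 at 0.54. Both are annotated as long noncoding RNAs. The sources used here do not say whether reads were counted by strand, and a share of reads between INSIG2 and these neighbours was not tested. Next to INSIG1, RBM33 had -0.73 in the second place, and the direct neighbour CNPY1 had -0.16. PTPN23, directly beside SCAP, had -0.46, which is lower than SCAP itself.

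**Figure D3:**
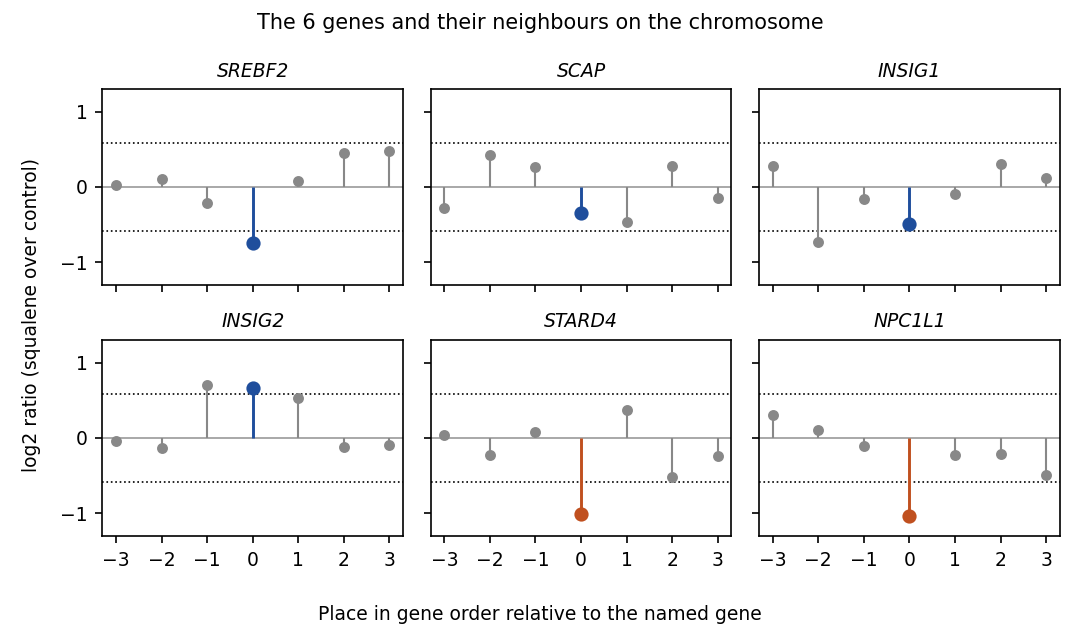
Each panel shows 1 of the 6 genes at place 0 and the 3 nearest genes of the table on each side, by gene order alone, with the log2 ratio of the squalene level to the control level on the vertical axis and dotted lines at 1.5-fold. SREBF2, STARD4 and NPC1L1 are lower than every neighbour shown, while INSIG2 stands between 2 genes that are also above 0.

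Markers of liver cell types lay nearer to no difference than STARD4 and NPC1L1, with 1 exception. Of 9 hepatocyte markers, 8 are in the table, with a level of 1 or more on both diets, and 7 were higher on the squalene diet at a median log2 ratio of 0.34. The exception is CYP3A6, a drug-metabolising enzyme, at 1.10. All 6 endothelial markers were lower, with ratios from -0.40 to -0.03. All 4 lymphocyte markers found of 5 were higher, from 0.18 to 0.43. Kupffer cell markers ranged from -0.12 to 0.46 for 5 found of 7, stellate cell markers from -0.26 to 0.34 for all 6, and cholangiocyte markers from -0.30 to 0.52 for 3 found of 4. Of 5 skeletal muscle markers 3 were found, from -0.10 to 0.26. The highest of them, MYH1, had a level under 1 on both diets. The part of these shifts in the ratios of the 6 genes was not tested.

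None of the 46 splicing events in 39 genes that the splicing tables list lies in any of the 6 genes, and none lies in a gene of the 5 pathway lists above. The splicing tables hold only events that had passed a threshold, so this does not say that splicing of these genes was the same on both diets. The lists of cell type markers were not looked up there.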

How the data were processed

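Poly-A RNA was sequenced as paired reads by the authors, who removed poor reads, used HISAT2 to place them on the OryCun2.0 genome, called variants with GATK and splicing with rMATS, and estimated gene levels with Bowtie and RSEM. Tool versions, and how rabbits were combined, are not given in the sources used here. The deposited levels are 1 score per gene and diet, whose scale and decimal marks are lost where a level is 1 or more. The deposited table also holds the authors' own fold changes and p-values, which were not used, and a transcript length in bases.

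The log2 ratio of squalene over control was computed from the deposited levels at the power of 10 nearest to 0, with no pseudocount, no filter and no centring. Where both levels are 1 or more, ratios beyond about 1.66 on the log2 scale are therefore set wrongly, mostly on the other side. Both levels are under 1 for 2953 genes, whose ratios have no such limit. For the 242 genes with 1 level under 1, the ratio is right only if the other level is under 10. Of the rows, 587 are predicted genes without a reference gene ID. Gene IDs of 16248 rows were found in the RefSeq table of mOryCun1.1. Listed genes and markers were looked up by symbol alone, so a gene that the table names otherwise was counted as missing. Python 3.11.15 with numpy 2.4.6, pandas 2.3.3 and matplotlib 3.10.9 was used.

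The 6 genes and all lists were chosen with earlier results of these data known. From each of the 5 pathway lists, the 2 genes with the highest and the 2 with the lowest ratio were named, except for 1 gene that is not reported here, and any other gene was named after its values were seen. Genes with a pattern like the members could not be sought with 2 levels per gene. The site tables hold 30 columns with a base per library, which name no gene. Without an annotation of OryCun2.0, no site could be placed in a member, and the planned exact test of changed sites was not run. Splicing tables hold 20 columns of reads per rabbit, not used here, as no event lies in a member. Library names match no single sample label, so depth is given as a range. Alternatives were other folds, centring and other backgrounds.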

Additional observations from a re-analysis of the deposited data

How the results depend on the processing

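Centring the ratios on the median of all genes, or of the 15928 genes with both levels at least 1 (a choice made after the data were seen), left each of the 6 genes on its side of 0 and of the 1.5-fold size. With a smaller fold of 5/4 as the size, SCAP and INSIG1 were past it too, so that 5 of the 6 genes were lower, against 12.8% of all genes. With a fold of 2, 0 of the 6 were higher, against 0.638% of all genes, and STARD4 and NPC1L1 were lower, against 0.361%. Among genes with both levels at least 1, 3.36% were lower and 5.22% higher by 1.5-fold, and without predicted genes 2.95% and 4.61%. With a fold of 2, 4 of the 17 sterol synthesis genes were lower, against the same 0.361%. By that size 0 of the 7 LXR and export genes were higher, against the same 0.638%. Of 74 values recomputed under an alternative, 9 moved, all of them counts under another fold. A count was called moved only if it changed by more than 1.5-fold, or to or from 0. By that rule the change from 3 to 2 lower members with a fold of 2 was called the same. So was that from 10 to 12 lower sterol synthesis genes with a fold of 5/4.

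No paired analysis was possible because the table holds 1 level per diet and no value per rabbit, and for the same reason no rabbit was left out. Other settings for changed sites and for splicing events were not run, as no site or event was placed in the 6 genes, and no symbol of the 6 has a second row. No count per gene was used, so the precision that depth gives a single gene is not known. All ratios assume the power of 10 nearest to no difference.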
